A study of Mus musculus with 12 samples.

Results

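The interferon response genes are 39 genes chosen by name: the receptors, transcription factors, nucleic acid sensors, antiviral effectors and feedback genes of the interferon pathway. Their members in these data are all ATAC-seq peaks whose nearest gene, as the deposited tables name it, is on that list. There were 371 such peaks among 281974 in all, of which microglia held 245, NeuN+ nuclei 68 and Olig2+ nuclei 58. ATAC-seq uses a transposase to cut accessible DNA, so more tags in a peak mean that the site was more open. Peaks at most 1000 bp from the transcription start site (TSS) are called start-site peaks here, and all others distal. By that measure 56, 21 and 24 member peaks of microglia, NeuN+ and Olig2+ nuclei were start-site peaks.

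The study compared forebrains of C57BL/6 mice aged 4 months that were wild type (WT) or carried a knockout of Sgsh (SgshKO). Sgsh encodes the lysosomal sulfamidase that degrades heparan sulfate, and its loss is the genetic cause of mucopolysaccharidosis IIIA. Microglia were sorted as live cells that were CD11b+ and CX3CR1+ with low CD45. Neuronal nuclei (PU.1-, OLIG2-, NEUN+) and oligodendrocyte lineage nuclei (PU.1-, OLIG2+, NEUN-) were sorted after light fixation. Each genotype had 2 libraries in each sort, 12 in all, and the labels give neither how the knockout was made nor whether the 2 libraries of a group came from separate animals. The p-values below therefore measure only the spread between these libraries, which may be technical.

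Interferons act through paired receptors. Type I interferons bind Ifnar1 with Ifnar2, and a complex of Stat2, another STAT protein and Irf9 then binds the interferon-stimulated response element (ISRE) in target promoters. Interferon gamma binds Ifngr1 with Ifngr2 and acts through the gamma-activated site (GAS). The targets include proteins that trap viruses, degrade viral RNA or tag proteins, and Usp18, which restrains the receptor. In the brain microglia are a main cell type that expresses this programme.

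Library totals ran from 10771659 to 11804222 tags in microglia, 14326703 to 17706971 in NeuN+ nuclei and 15044194 to 19555924 in Olig2+ nuclei, and a member peak held a median of 39.5, 20 and 28.5 reads per library. The share of tags in peaks was not even. In microglia it was 55.8% and 48.7% in WT replicates 1 and 2 and 67.4% and 53.7% in SgshKO replicates 1 and 2. In NeuN+ nuclei it was 26.7% and 25.9% in WT and 21.5% and 21.2% in SgshKO, and in Olig2+ nuclei it lay between 30.9% and 31.8%. Start-site peaks were present for all 7 microglia markers in the microglia table, all 7 neuron markers in the NeuN table and all 7 oligodendrocyte markers in the Olig2 table. The start-site peak of Sgsh itself was kept in every SgshKO library (9.07 to 260 normalized tags), and since the labels do not say which bases were deleted, it does not check the genotype.

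The promoters of the 4 genes whose start-site peaks were called higher in SgshKO microglia are shown first, because 3 of them carry the letters of an ISRE. They are the 250 bases before the start site, from RefSeq on GRCm38.p6, 5′ to 3′ on the gene's strand. Capitals mark every match to GAAANNGAAA, searched on both strands, and overlapping matches run together.
Bst2, chr8:71537473-71537722, minus strand: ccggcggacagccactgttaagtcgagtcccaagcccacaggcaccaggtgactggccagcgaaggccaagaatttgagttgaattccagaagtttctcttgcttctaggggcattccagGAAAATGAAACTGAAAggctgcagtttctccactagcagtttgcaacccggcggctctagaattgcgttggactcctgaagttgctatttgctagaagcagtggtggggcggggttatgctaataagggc
Rsad2, chr12:26456453-26456702, minus strand: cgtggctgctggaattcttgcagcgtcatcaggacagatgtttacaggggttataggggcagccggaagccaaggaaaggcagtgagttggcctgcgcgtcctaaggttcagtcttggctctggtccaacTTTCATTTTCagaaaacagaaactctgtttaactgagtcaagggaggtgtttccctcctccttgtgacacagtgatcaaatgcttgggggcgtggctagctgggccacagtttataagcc
Stat2, chr10:128270248-128270497, plus strand: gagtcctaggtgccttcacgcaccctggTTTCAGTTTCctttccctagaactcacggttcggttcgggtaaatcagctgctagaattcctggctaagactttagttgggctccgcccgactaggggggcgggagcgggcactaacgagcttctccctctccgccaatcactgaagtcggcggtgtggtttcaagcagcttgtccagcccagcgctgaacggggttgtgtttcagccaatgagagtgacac
Ifngr1, chr10:19591699-19591948, plus strand: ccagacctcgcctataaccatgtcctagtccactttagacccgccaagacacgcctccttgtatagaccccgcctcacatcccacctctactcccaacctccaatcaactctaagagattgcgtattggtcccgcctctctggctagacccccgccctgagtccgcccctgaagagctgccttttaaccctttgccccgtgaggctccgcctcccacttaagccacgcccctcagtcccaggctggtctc
The matches begin at -130 and -124 in Bst2, at -120 in Rsad2 and at -222 in Stat2, counted from the RefSeq start site, and Ifngr1 has none. Of these, the match of Rsad2 lies inside the microglial start-site peak, and those of Bst2 and Stat2 lie outside the borders of theirs.

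Across the RefSeq table, 37 windows of 31 member genes were found, each running from 250 bases before to 50 after a start site. An ISRE match was present in 16 of the 37 (43.2%), against 3.44% of all 32851 windows. The GAS letters TTCNNNGAA were in 10 (27%), against 8.30%. The composite of an ETS and an IRF half-site, GGAANNGAAA, was in 3 (8.11%), against 2.72%, and the E-box TCACGTGA bound by the lysosomal regulators MITF and TFEB was in none, against 0.974%. A match says only that the letters are there. Inside the member start-site peaks, ISRE letters were found in 6 microglial peaks (Ddx58, Gbp2, Ifih1, Ifit3, Isg15 and Rsad2). They were also found in the Rsad2 peak of Olig2+ nuclei and in no NeuN+ peak. Only bases inside the RefSeq windows were searched, so a peak or part of a peak outside them could not score.
The window around the first match is given for 3 of these, a ubiquitin-like modifier and the RNA sensors RIG-I (Ddx58) and MDA5 (Ifih1), to show how the element recurs; all 3 genes lie on the minus strand, and a window may cut the last match or end with the RefSeq entry.
Isg15, within chr4:156200769-156201068: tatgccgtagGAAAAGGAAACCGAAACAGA
Ddx58, within chr4:40239776-40240075: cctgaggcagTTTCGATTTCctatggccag
Ifih1, within chr2:62646206-62646505: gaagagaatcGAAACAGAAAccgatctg
Matches start at -78 in Isg15, at 3 in Ddx58 and at 33 in Ifih1. The changes of these 3 microglial peaks in SgshKO were 1.08 ± 0.45, 0.83 ± 0.44 and 0.05 ± 0.29 (log2, SE), and none of them passed the test (adjusted p = 0.139, 0.263 and 0.943). In the whole microglia table there were 170 start-site peaks with an ISRE match, of which 15 were called higher (8.82%, against 8.59% of the 23636 without a match) and 0 lower, with a median change of 0.20 against 0.03.

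Microglia had the widest set of open interferon promoters. A start-site peak was present for 34 of the 39 genes in microglia, against 17 in NeuN+ and 18 in Olig2+ nuclei. All 3 tables held one for 14 genes: the 4 receptors, Stat2, Irf1, Irf2, Irf3, Irf9, Ifih1, Ifit2, Mx2, Xaf1 and Usp18. For 14 others the microglia table alone held one, among them Irf5, Isg15, Ifit3, Mx1, Oas2, Oasl2, Cxcl10, Gbp2 and the sensors Ddx58, Tmem173 (STING) and Zbp1. Irf7 and Rtp4 had one in microglia and NeuN+ nuclei, and Rsad2, Bst2, Gbp3 and Trim25 in microglia and Olig2+ nuclei. Ifitm2 had one in NeuN+ nuclei alone, and Ifit1, Ifitm3, Oas1a and Oas3 in no table. Oas1a was the 1 member with no peak of any kind. A missing peak means that the authors listed none there, and the tables differ in depth and in the share of tags in peaks.

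Levels across the sorts were compared per 100 bp of peak in the WT libraries, as a description, because live cells and fixed nuclei were prepared differently. The start-site peaks nearest the TSS overlapped in all 3 tables for 9 of the 14 shared genes. Microglia ranked first for 6 of these 9, and for 5 both of their libraries lay above those of the next sort. The values are scaled to all tags, and the WT share of tags in peaks was 55.8% and 48.7% in microglia. It was 26.7% and 25.9% in NeuN+ and 31.8% and 31.8% in Olig2+ nuclei. Levels of all peaks were not ranked across the sorts, so the first rank is not read as particular to these genes. The RNA sensor Ifih1 stood furthest apart, at 62.0 and 63.7 normalized tags per 100 bp in microglia, 3.30 and 4.6 in Olig2+ and 2.89 and 3.62 in NeuN+ nuclei, with the nuclei sorts overlapping each other. Usp18 gave 53.2 and 63.1 in microglia, 9.15 and 9.56 in NeuN+ and 3.64 and 4.30 in Olig2+ nuclei. The regulator Irf1 gave 44.7 and 57.3, 11.3 and 12.7, and 3.27 and 3.62 in the same order of sorts. For both genes the 3 sorts ranked in that order without overlap.

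The receptor promoters Ifnar1, Ifngr1 and Ifngr2 differed less between the 3 sorts than Ifih1, Usp18 and Irf1 did. Ifnar1 reached 129 and 152 normalized tags per 100 bp in microglia and 128 and 151 in Olig2+ nuclei, which overlap, against 43.8 and 53.4 in NeuN+ nuclei. Ifngr1 was highest in Olig2+ nuclei, at 94.2 and 96.2, followed by microglia at 74.0 and 76.7 and NeuN+ nuclei at 47.0 and 55.4. For Stat2 the microglial values (75.5 and 97.0) overlapped those of Olig2+ nuclei (85.3 and 99.3) and lay above those of NeuN+ nuclei (66.0 and 71.1). In the other 5 shared genes (Ifnar2, Irf2, Irf3, Ifit2 and Xaf1) the nearest peaks of the 3 tables did not share a position, so their order is not read here.

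**Figure D1:**
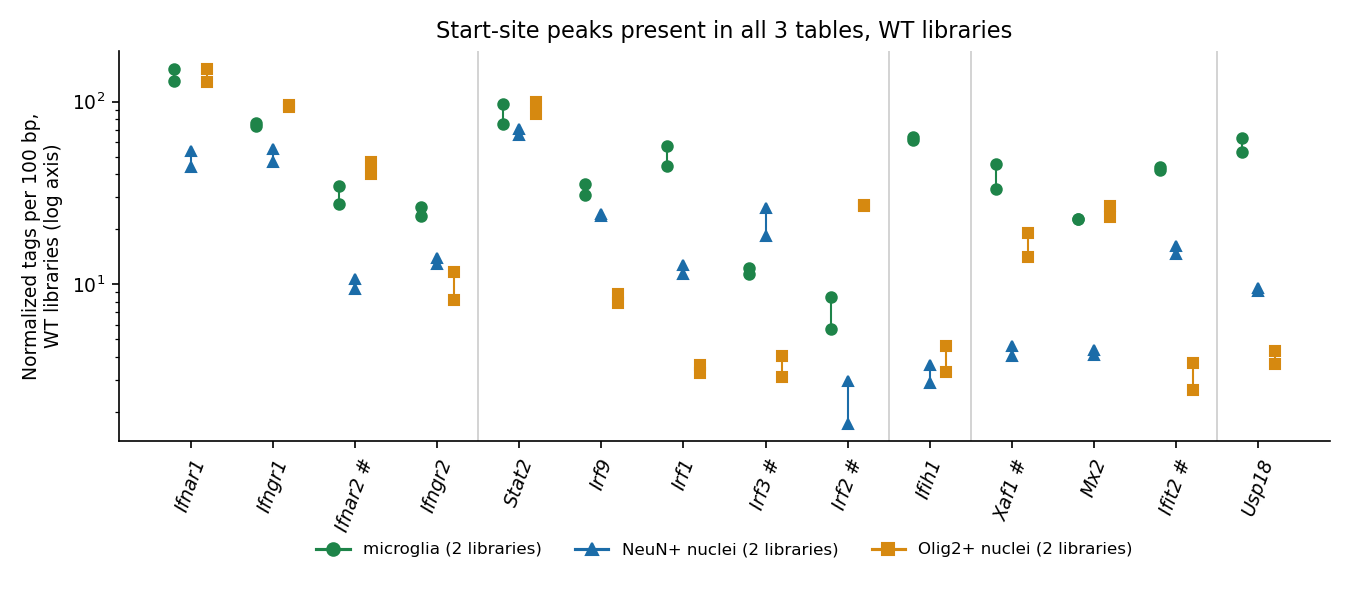
Start-site peaks nearest the TSS in WT libraries for the 14 genes that have one in all 3 tables, in normalized tags per 100 bp on a log axis; each symbol is 1 library, a line joins the 2 libraries of a sort, and # marks the 5 genes whose peaks do not share a position. Microglia lie above both nuclei sorts for Ifih1, Usp18 and Irf1, while Ifnar1 and Stat2 overlap between microglia and Olig2+ nuclei.

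In SgshKO microglia a few interferon promoters were more open, led by Bst2, Rsad2, Stat2 and Ifngr1, and no start-site peak of the 39 genes was called lower. Of the 56 start-site peaks, 4 were called higher and 0 lower, against 8.59% higher and 1.20% lower of all 23806 start-site peaks. Their share is thus near that of the table. The median change of the 56 was 0.25 (log2, SgshKO minus WT), against 0.03 for all start-site peaks, and 37 of the 56 lay above 0.

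Bst2 encodes tetherin, which holds budding virus at the cell surface. Its start-site peak (chr8:71537384-71537584, 47 bp upstream) held 76.0 and 51.7 normalized tags in the WT libraries and 216 and 174 in the SgshKO libraries. Both SgshKO values lay far above both WT values, with a log2 change of 1.61 ± 0.31 (SE, adjusted p = 0.000644). Rsad2 encodes viperin, an enzyme that makes a chain-terminating nucleotide. Its start-site peak (chr12:26456406-26456724, the promoter printed above with 1 ISRE match) rose from 19.9 and 22.9 in WT to 56.3 and 46.4 in SgshKO. The change was 1.22 ± 0.38 (adjusted p = 0.0433). A distal Rsad2 peak 3869 bp upstream (chr12:26460213-26460430, intergenic) moved the same way, from 34.6 and 26.3 to 98.7 and 69.6, a change of 1.43 ± 0.35 (adjusted p = 0.00892). All 3 Rsad2 peaks had both SgshKO libraries above both WT libraries, where 51.1% of all microglial peaks did not overlap in either direction. The third Rsad2 peak, at 333 bp, was not called (0.75 ± 0.50, adjusted p = 0.40).

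Stat2 is the STAT protein particular to type I and III interferon signalling. It had a single microglial peak, at its promoter (chr10:128270353-128270574), with 214 and 167 tags in WT and 393 and 357 in SgshKO. The groups did not overlap, and the change was 0.98 ± 0.26 (adjusted p = 0.0165). Ifngr1, the ligand-binding chain of the interferon gamma receptor, had a peak 238 bp upstream (chr10:19591587-19591836) with 181 and 144 tags in WT and 321 and 303 in SgshKO, a change of 0.95 ± 0.27 (adjusted p = 0.0242). A neighbouring Ifngr1 peak at 85 bp held 149.5 and 155 in WT and 184 and 188 in SgshKO. It also did not overlap between genotypes, but its change of 0.29 ± 0.28 was not called.

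These calls rest on both WT libraries. Without WT replicate 1 the adjusted p was 0.557 for Rsad2, 0.206 for Stat2 and 0.279 for Ifngr1, and without WT replicate 2 it was 0.295 for Bst2, 0.564 for Rsad2, 0.691 for Stat2 and 0.719 for Ifngr1. DESeq2 gave 0.0645 for Rsad2. The fall was general: over the whole table the share of peaks called went from 7.37% to 1.26% and 0.607% without these libraries.

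Other strong microglial promoters lay higher in SgshKO without being called. Ifnar1 held 362 and 308 tags in WT and 513 and 565 in SgshKO, without overlap (0.69 ± 0.25, adjusted p = 0.0839). That peak passed with median-of-ratios scaling, edgeR and DESeq2 (adjusted p = 0.0205, 0.0120 and 0.0421), but not with in-peak scaling or quantile normalization. Zbp1, a sensor of left-handed nucleic acid, held 211 and 191 in WT and 335 and 271 in SgshKO at its start site (0.59 ± 0.27, adjusted p = 0.184). This peak passed with median-of-ratios scaling and edgeR (adjusted p = 0.0286 and 0.0260), but not with in-peak scaling, quantile normalization or DESeq2.

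Among the other genes with a start-site peak in all 3 tables, Irf9, Usp18 and Ifngr2 had both SgshKO libraries above both WT libraries. Ifngr2 went from 53.6 and 60.15 to 64.1 and 73.3 and was not called (0.27 ± 0.33, adjusted p = 0.688). Irf9 went from 64.8 and 74.5 to 109 and 85.4, and Usp18 from 136 and 114 to 196 and 138, with changes of 0.47 ± 0.32 and 0.40 ± 0.29, neither of them called (adjusted p = 0.406 and 0.449). The Ifih1 promoter held 133 and 129.6 in WT and 139 and 133 in SgshKO. Irf1 had 104 and 133 in WT and 109 and 90.0 in SgshKO at its peak 26 bp upstream. Mx2 (52.7, 52.5, 59.7 and 52.0), Ifnar2 (93.3, 74.5, 113 and 82.6) and Xaf1 (120.1, 87.3, 184 and 100.3, all in the order WT 1, WT 2, SgshKO 1, SgshKO 2) overlapped between genotypes. Ifit2 alone among these lay lower in both SgshKO libraries, at 73.6 and 56.6 against 94.2 and 91.5, and was not called (-0.52 ± 0.32, adjusted p = 0.355). With in-peak scaling Ifit2 was called lower (-0.72, adjusted p = 0.0435).

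By role, the start-site counts called higher in microglia were 1 of 7 for receptors, 1 of 14 for transcription factors, 0 of 7 for sensors, 2 of 26 for effectors and 0 of 2 for Usp18 and Cxcl10. Medians ran from 0.05 for sensors to 0.50 for the last pair, with 0.17 for effectors, 0.25 for transcription factors and 0.27 for receptors. The effectors spread widest, from -0.80 at Parp14 to 1.61 at Bst2.

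**Figure D2:**
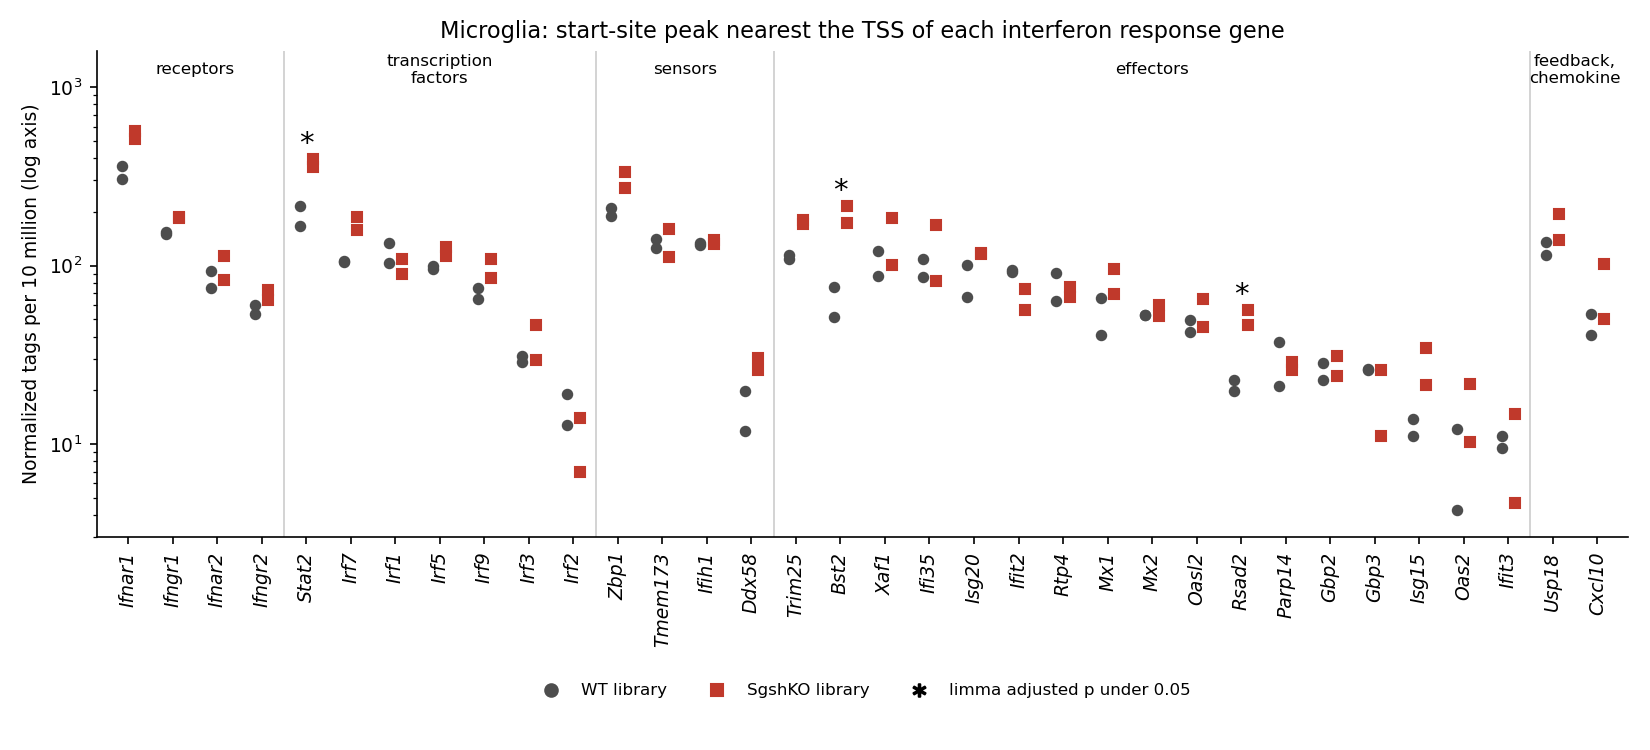
Microglial start-site peak nearest the TSS of each gene that has one, in normalized tags per 10000000 on a log axis, with 2 WT libraries (circles) and 2 SgshKO libraries (squares); stars mark limma adjusted p under 0.05. Bst2, Rsad2 and Stat2 are starred and separated between genotypes; the called Ifngr1 peak lies farther from the TSS than the one drawn.

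Away from the promoters the microglial peaks moved in both directions, and more were called lower than higher. Of 189 distal peaks, 4 were called higher and 8 lower, against 3.81% and 2.69% of all 67926 distal peaks. The median change was -0.18, against -0.12 for all distal peaks. Counting both classes, 16 of 245 member peaks were called (background 7.37%), and 129 had genotypes that did not overlap, 54 above and 75 below WT (background 51.1%). The nearest gene is an assignment by distance: 61 of the 189 lay inside the named gene, 59 inside another gene and 69 in no gene of the RefSeq table.

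The distal peaks called higher were those of Rsad2, above, Ifnar2, Irf1 and Irf2. The Ifnar2 peak (chr16:91366658-91366904, 6002 bp upstream, inside the noncoding Gm36587) rose from 12.1 and 22 to 40.7 and 45.5, a change of 1.34 ± 0.41 (adjusted p = 0.0392). Irf1 and Irf2 are partners that act on the same element, an activator and mostly a repressor. Inside Gm12216, 35495 bp from the Irf1 TSS (chr11:53805865-53806071), a peak with 5.19 and 5.08 tags in WT reached 24.2 and 20.4 in SgshKO, a change of 1.92 ± 0.48 (adjusted p = 0.0102). An intronic Irf2 peak at 71717 bp (chr8:46811357-46811567) went from 2.59 and 3.39 to 19.1 and 11.1, or 1.97 ± 0.53 (adjusted p = 0.0153). Both of these peaks were nearly closed in WT. A merged peak list can hold a site that is open in SgshKO alone, and such a site can hardly show a decrease. The direction of these changes may thus be partly fixed by the listing. The same holds in reverse for peaks that were nearly closed in SgshKO.

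Each of the 2 genes also had a peak called lower. At 23709 bp from the Irf1 TSS (chr11:53794031-53794334, also in Gm12216), tags fell from 104 and 102 to 51.1 and 43.6, a change of -1.10 ± 0.32 (adjusted p = 0.0292). At 96008 bp in the Irf2 gene (chr8:46835644-46835862) they fell from 68.3 and 44.9 to 30.3 and 17.6, a change of -1.22 ± 0.39 (adjusted p = 0.0471). Irf2 had 28 microglial peaks, 23 of them inside the gene, with a median change of -0.40. The other distal Irf2 peaks were mostly below 0 as well: 20 of its 27 distal peaks had a negative change, and 17 had both SgshKO libraries below both WT libraries. In the whole table, 28585 of 67926 distal peaks lay above 0 and 19815 had both SgshKO libraries below.

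Irf5, a factor that drives inflammatory genes in myeloid cells, had 2 of its 18 peaks called lower and none higher. An intronic one (chr6:29534699-29534932, 5533 bp) fell from 15.6 and 11.0 to 3.46 and 3.71, or -1.62 ± 0.52 (adjusted p = 0.0478). One at 13484 bp, inside the neighbouring Tnpo3 (chr6:29542666-29542866), fell from 17.3 and 25.4 to 6.06 and 4.64, or -1.80 ± 0.49 (adjusted p = 0.0179). The Irf5 promoter peak 82 bp upstream, by contrast, held 360 and 318 in WT and 412 and 288 in SgshKO and overlapped. The peak named for Irf3 lies 7128 bp from its TSS in an intron of Scaf1 (chr7:45004669-45004884), and fell from 38.9 and 51.7 to 13.8 and 7.43, or -2.03 ± 0.44 (adjusted p = 0.00241).

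Zbp1 had the most peaks of any member, 38 in microglia, but 29 of them lie in Pmepa1, its neighbour, whose product restrains TGF-beta signalling. The pair of called peaks there fell, at 24727 bp upstream (chr2:173243454-173243844) from 20.7 and 44.0 to 12.1 and 8.36 (-1.50 ± 0.46, adjusted p = 0.0389), and in the last exon of Pmepa1 (chr2:173224618-173224818) from 11.2 and 8.47 to 0.870 and 2.79 (-2.02 ± 0.56, adjusted p = 0.0211). The latter rests on few reads. On the other side of the gene, at 32337 bp (chr2:173186485-173186685), 60.5 and 62.7 tags in WT became 11.2 and 22.3 in SgshKO, or -1.89 ± 0.40 (adjusted p = 0.00225). All 3 of these peaks had both SgshKO libraries below both WT libraries, where 51.1% of all microglial peaks did not overlap in either direction. Without the peaks named for Zbp1 the median of the remaining 154 distal peaks was still -0.18.

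**Figure D3:**
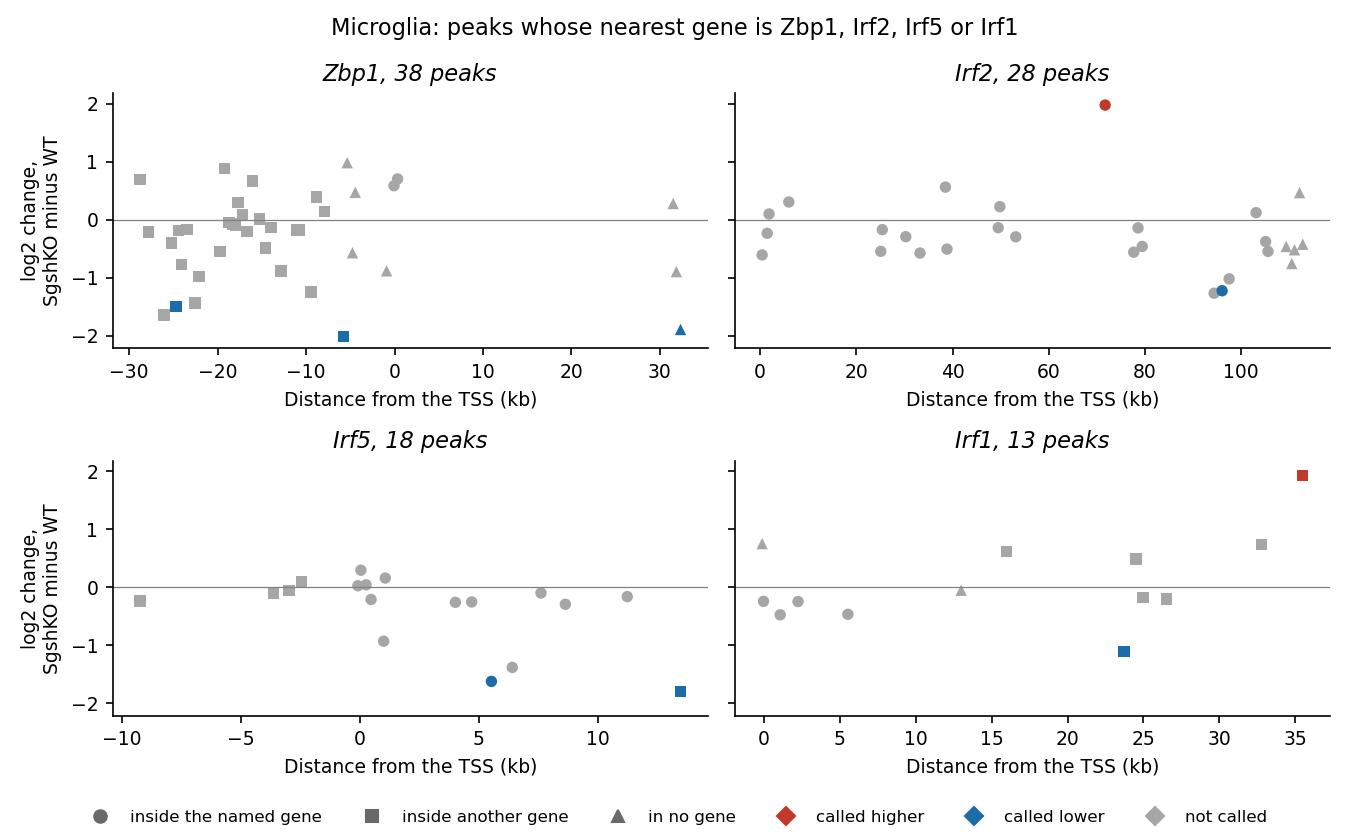
Microglial peaks whose nearest gene is Zbp1, Irf2, Irf5 or Irf1, by distance from the TSS in kb and log2 change (SgshKO minus WT); circles lie inside the named gene, squares inside another gene and triangles in none, and colours mark limma calls. Peaks called lower lie away from the start site in all 4 panels, and the called increases are 1 each for Irf2 and Irf1.

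Without WT replicate 1, 1 microglial member peak was called, Bst2, and without WT replicate 2 none was (14 at an unadjusted p under 0.05). Without SgshKO replicate 1 it was 48 (11 higher, 37 lower), and without SgshKO replicate 2 it was 43 (29 higher, 14 lower). Scaling to the tags in peaks moved the median of all microglial peaks by -0.20 and gave 10 member peaks higher and 33 lower, while median-of-ratios scaling gave 18 and 13. The start-site median stayed above 0 with in-peak, median-of-ratios and quantile scaling (0.04, 0.30 and 0.14), but without SgshKO replicate 1 it was -0.004, and without SgshKO replicate 2 the distal median was 0.03. Summed start-site tags of border macrophage markers (2 of 5 with a peak, none for Cd163, F13a1 and Lyve1) reached 41.5 and 31.3 in the WT libraries and 69.3 and 55.7 in the SgshKO libraries, against 1733 to 2264 for the 7 microglia markers in all 4 libraries. Blood myeloid markers (1 of 6 with a peak, none for Ccr2 or Ly6c2) summed to 9.28 to 22.5. Those of oligodendrocyte markers (4 of 7 with a peak) were also higher in both SgshKO libraries, at 275 and 245 against 219 and 206, as were those of neuron markers (1 of 7), at 49.4 and 41.8 against 25.9 and 32.2. The part of these cells in the results was not tested.

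In NeuN+ nuclei every called interferon promoter was less open in SgshKO, and the set moved with the table. Of 21 start-site peaks, 0 were called higher and 9 lower, against 1.74% and 44.9% of all 23397 start-site peaks. The median change was -0.63, against -0.53 for all of them. Of the 47 distal peaks, 6 were called higher and 6 lower, against 12.6% and 12.6%. In all, 21 of 68 peaks were called (background 29.8%), and 50 did not overlap between genotypes, 17 above and 33 below WT (background 68.5%). Tags at start sites of the 7 neuron markers summed to 813 and 756 in WT and 416 and 422 in SgshKO, those of oligodendrocyte markers (3 of 7 with a peak) to 119 and 99.4 against 55.8 and 54.6, and the share of tags in peaks was lower in both SgshKO libraries. Their part in the results was not tested.

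All 4 receptor promoters were among the 9. Ifnar1 held 169 and 139 tags in WT and 97.7 and 100.3 in SgshKO (-0.63 ± 0.12, adjusted p = 0.000917). Ifnar2 fell from 20.4 and 23.1 to 10.5 and 4.44, the largest receptor change (-1.52 ± 0.33, adjusted p = 0.00254). Ifngr1 went from 96.3 and 114 to 78.2 and 83.8 (-0.37 ± 0.13, adjusted p = 0.0422), and Ifngr2 was called too (-0.66 ± 0.24, adjusted p = 0.0431). None of the 4 overlapped between genotypes. The Ifngr1 change is less than that of the median start-site peak, and with quantile normalization it turned to 0.16.

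The other called promoters belong to transcription factors, a sensor and the feedback gene. Stat2 had the smallest p of the set, with 184 and 198 tags in WT and 115 and 131 in SgshKO (-0.63 ± 0.10, adjusted p = 0.000292). Irf1 fell from 26.6 and 23.7 to 9.07 and 17.1 (-0.95 ± 0.28, adjusted p = 0.0171), and a peak in the first Irf2 intron from 18.7 and 22.6 to 12.6 and 9.52 (-0.85 ± 0.27, adjusted p = 0.0240). Usp18 fell from 23.8 and 24.9 to 18.1 and 10.8 (-0.75 ± 0.27, adjusted p = 0.0399). Ifih1 was barely above closed, at 8.50 and 6.78 in WT and 4.19 and 0.630 in SgshKO (-1.56 ± 0.48, adjusted p = 0.0201). Irf9 missed the threshold, with 60.0 and 61.6 against 45.4 and 45.1 (-0.42 ± 0.16, adjusted p = 0.0518), and Ifit2, Mx2 and Xaf1 overlapped between genotypes.

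Distal peaks in NeuN+ nuclei fell around Irf3 and Irf7 and rose in a neighbour of Mx1. Irf3 and Irf7 switch on the interferon genes themselves. Within Irf3, 3237 bp from the TSS (chr7:45000770-45001000, exonic), tags fell from 21.5 and 18.1 to 6.98 and 8.25 (-1.27 ± 0.28, adjusted p = 0.00309). A peak at 5481 bp, in Scaf1, fell from 15.9 and 14.1 to 4.89 and 10.2 (-0.98 ± 0.33, adjusted p = 0.0341), and an exonic Irf7 peak at 1180 bp from 13 and 11.3 to 4.19 and 7.62 (-0.97 ± 0.34, adjusted p = 0.0383). All 4 Irf7 peaks and all 6 Irf3 peaks had negative changes, of which 2 and 3 were called.

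The increases named for Mx1 lie in introns of Bace2, which encodes a secretase: at 32559 bp (chr16:97430203-97430489) tags rose from 18.1 and 7.91 to 34.2 and 40.6 (1.55 ± 0.29, adjusted p = 0.000886), and at 31330 bp from 6.23 and 11.9 to 16.8 and 22.2 (1.07 ± 0.31, adjusted p = 0.0155). An intergenic peak 84490 bp from Rtp4, which encodes a receptor chaperone, rose from 7.93 and 9.04 to 15.4 and 22.9 (1.06 ± 0.29, adjusted p = 0.0113). None of these 3 peaks overlapped between genotypes, and Mx1 had no start-site peak in this table. The other 3 called increases were among the lowest 25% of the table's peaks by mean. They are another peak in Bace2, 44033 bp from the Mx1 TSS (1.92 ± 0.41, adjusted p = 0.00219), and 2 named for Irf2, 1 inside the gene at 101285 bp (1.05, adjusted p = 0.0372) and 1 beyond it at 122992 bp (1.35, adjusted p = 0.00955).

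The NeuN+ counts depend on the scaling. In-peak, median-of-ratios and quantile scaling moved the median of all NeuN+ peaks by 0.28, 0.20 and 0.15. With the first it was 13 member peaks higher and 6 lower, with the next 10 and 6, and with quantile normalization 5 and 2. The start-site peaks called lower became 4 of 21 with in-peak scaling (background 23.5%) and 4 with median-of-ratios scaling (28.5%), and the distal median turned from -0.16 to 0.11 and 0.04. Stat2, Ifnar1, Ifnar2 and the exonic Irf3 peak stayed called with both, while Irf1, Irf2, Usp18, Ifngr1 and Irf7 did not. Quantile normalization ended the calls of Stat2 and Ifnar1 (-0.07 for each, adjusted p = 0.649 and 0.676), and DESeq2 those of Stat2, Ifnar1, Ifnar2 and that Irf3 peak (0.119, 0.182, 0.159 and 0.248). DESeq2 called 1 member peak, and without either SgshKO library limma called none here or in the whole table (23 and 18 member peaks at an unadjusted p under 0.05), where edgeR called 11 and 10. Without WT replicate 1 or 2 it was 5 and 7.

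In Olig2+ nuclei the 3 called promoters were more open in SgshKO, and their share was near that of the table. Of 24 start-site peaks, 3 were called higher and 0 lower, against 12.7% and 7.56% of all 20120 start-site peaks, with a median of 0.12 against 0.05. Irf1 changed most, from 8.30 and 9.20 to 19.7 and 26.6 tags at its peak 54 bp upstream (chr11:53770292-53770546), or 1.29 ± 0.28 (adjusted p = 0.00167). Trim25, the ubiquitin ligase that activates RIG-I, went from 17.6 and 18.4 to 35 and 36.6 (chr11:88999167-88999489), or 0.95 ± 0.22 (adjusted p = 0.00294). The Trim25 call was lost under no alternative run, and the Irf1 call under none of the 12 that gave it an adjusted p. DESeq2 gave Irf1 none, since its filter on low counts left the peak out. Ifnar1 rose slightly, from 279 and 329 to 368 and 362 (0.27 ± 0.08, adjusted p = 0.0155), and was lost with quantile normalization (adjusted p = 0.0625) and without WT replicate 1 (0.322).

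None of the promoters called in microglia was called in these nuclei. The Ifngr1 and Rsad2 peaks compared here lay 91 and 5 bp upstream, where those called in microglia lay 238 and 113 bp upstream. Stat2 held 221 and 190.2 tags in WT and 209.7 and 217 in SgshKO, and Ifngr1 held 285 and 279 against 295 and 287, with changes of 0.05 ± 0.09 and 0.05 ± 0.08. Bst2 was almost closed, at 7.26 and 6.14 in WT and 6.76 and 8.64 in SgshKO, as was Rsad2 at 9.85 and 15.3 against 14.8 and 13.3. Stat2, Bst2 and Rsad2 overlapped between genotypes. With so few tags a change of Bst2 or Rsad2 could have been missed.

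Of the 34 distal peaks in Olig2+ nuclei, 4 were called higher and 6 lower, against 6.69% and 13% of all distal peaks, and the median was -0.35 against -0.13. In all, 13 of 58 peaks were called (background 19.8%), and 37 did not overlap (background 61.2%). The increases were intragenic. Irf2 had 2, at 1445 bp (25.4 and 22 to 35 and 41.9, 0.67 ± 0.21, adjusted p = 0.0233) and at 89397 bp (45.6 and 39.9 to 64.6 and 61.8, 0.56 ± 0.17, adjusted p = 0.0183). An exonic Irf3 peak at 1085 bp went from 16.1 and 9.72 to 21.5 and 22.6 (0.77 ± 0.28, adjusted p = 0.0465), and an intronic peak of Ifit2, an inhibitor of viral translation, from 4.67 and 6.65 to 11.7 and 15.9 (1.15 ± 0.33, adjusted p = 0.0150). None of these 4 overlapped between genotypes.

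Of the 6 decreases, 3 were among the lowest 25% of the table's peaks by mean, and of these a peak 3869 bp upstream of Mx1 had the largest change (-1.70 ± 0.39, adjusted p = 0.00236), beside 1 each named for Xaf1 (-1.22) and Zbp1 (-1.06). Among the other 3, a peak 55332 bp from Isg20, which encodes an exonuclease (chr7:78969459-78969675), fell from 20.2 and 18.4 to 5.53 and 7.98 (-1.41 ± 0.31, adjusted p = 0.00158), and its call was lost under none of the 12 alternatives that gave an adjusted p, of which DESeq2 was not one. A peak 26835 bp from Usp18 fell from 15.6 and 13.8 to 7.99 and 6.65 (-0.92 ± 0.31, adjusted p = 0.0364), and an intronic Ifngr2 peak at 14167 bp from 25.9 and 29.7 to 17.8 and 12.0 (-0.88 ± 0.25, adjusted p = 0.0144). In each of the last 3, both SgshKO libraries lay below both WT libraries. Start-site tags of microglia markers (2 of 7 with a peak, none for Csf1r, Cx3cr1, P2ry12, Siglech and Tmem119) summed to 240 and 233 in WT and 271 and 284 in SgshKO. Those of neuron markers (4 of 7 with a peak) summed to 255 and 287 against 335 and 323, and those of the 7 oligodendrocyte markers to 2229 and 2202 against 1989 and 2020. None of these sums overlapped between genotypes, and their part in the results was not tested. DESeq2 called 2 of the member peaks in this table. Without WT replicate 1 or 2 limma called 4 and 5, and without SgshKO replicate 1 or 2 it called 14 and 10.

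**Figure D4:**
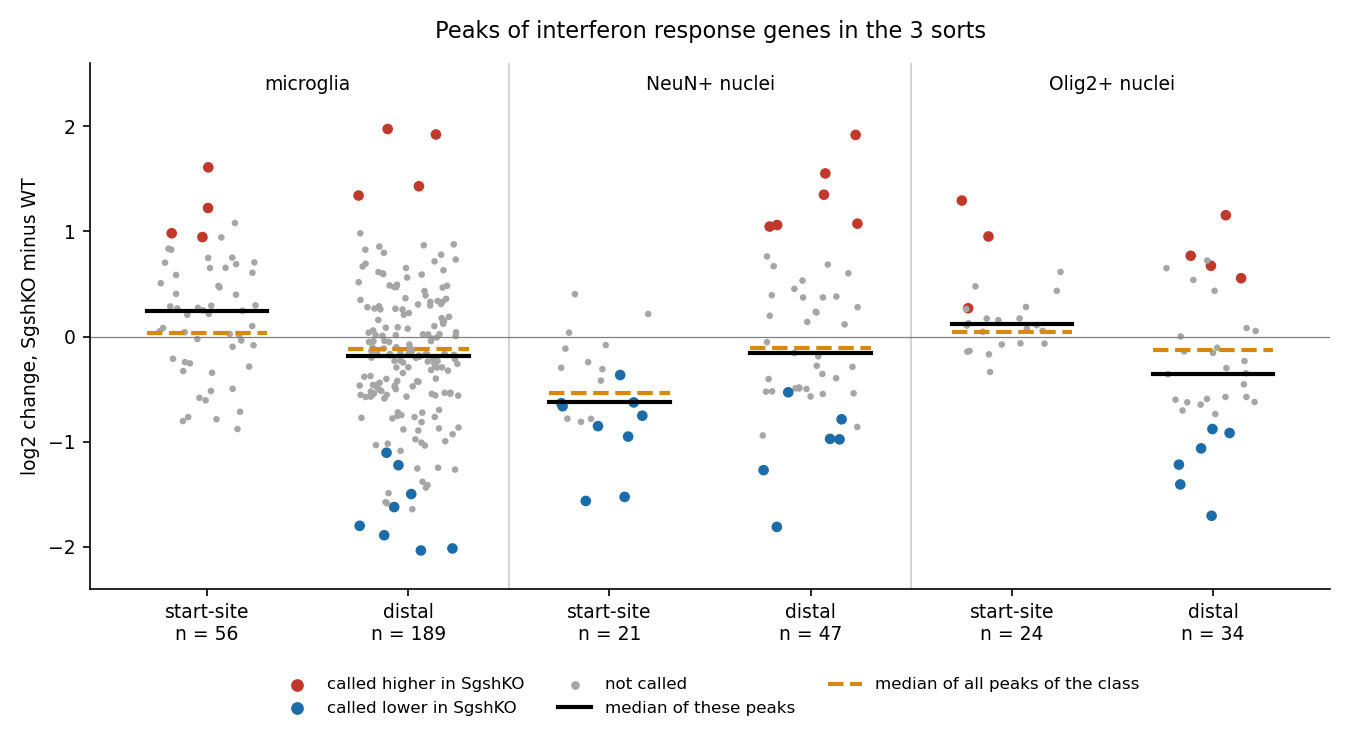
Log2 change (SgshKO minus WT) of each member peak by sort and class, 1 point per peak, with the median of these peaks (solid line) and of all peaks of that class in the table (dashed line). The start-site medians are 0.25 in microglia, -0.63 in NeuN+ and 0.12 in Olig2+ nuclei, beside 0.03, -0.53 and 0.05 for all start-site peaks.

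The genotype effect was then compared between sorts in 1 model of the 12 libraries, over 16740 peaks that the 3 tables share one to one with a reciprocal overlap of 50%. There were 19 member peaks of 14 genes among them. The effect differed in 8 of the 19 between microglia and NeuN+ nuclei (7 more positive in microglia; background 42.5%), in 5 between microglia and Olig2+ nuclei (background 21.6%) and in 7 between NeuN+ and Olig2+ nuclei, all more negative in NeuN+ nuclei (background 31.7%). The members' shares equal or lie near those of all shared peaks. Their median differences were 0.59, 0.07 and -0.42, against 0.61, 0.17 and -0.50 for all shared peaks. Each sort enters 2 of the 3 contrasts, so these counts share libraries.

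Stat2 was the 1 peak that differed in all 3 contrasts. Its promoter was called higher in microglia, lower in NeuN+ nuclei and neither in the Olig2+ sort, with the values given above. The effect was larger in microglia than in NeuN+ nuclei by 1.62 ± 0.20 (SE, adjusted p = 7.51e-07) and than in Olig2+ nuclei by 0.93 ± 0.20 (adjusted p = 0.00176), and both held in every alternative run. The difference between NeuN+ and Olig2+ nuclei (-0.69 ± 0.20, adjusted p = 0.0126) was lost with median-of-ratios scaling (adjusted p = 0.404). It was also lost without WT replicate 2 or SgshKO replicate 1 of the NeuN+ libraries (0.0557 and 0.0646) and without WT replicate 2 or SgshKO replicate 2 of the Olig2+ libraries (0.0851 and 0.0555).

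Ifnar1 differed between microglia and NeuN+ nuclei by 1.32 ± 0.19 (adjusted p = 6.2e-06), in every alternative run. Between NeuN+ and Olig2+ nuclei it differed by -0.90 ± 0.19 (adjusted p = 0.00157), which median-of-ratios scaling ended (adjusted p = 0.125).

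RefSeq gives Irf1 windows around 2 start sites, chr11:53769764-53770063 and chr11:53770223-53770522. A microglial promoter peak lay 118 bp upstream of the first and another 26 bp upstream of the other, and the peaks did not behave alike. At the one 118 bp upstream, microglia held 356 and 312 tags in WT and 571 and 552 in SgshKO (0.75 ± 0.25, adjusted p = 0.0554), and NeuN+ nuclei 28.3 and 33.3 against 21.6 and 27.9. The effects differed by 1.06 ± 0.31 (adjusted p = 0.00720), and between NeuN+ and Olig2+ nuclei by -0.92 ± 0.31 (adjusted p = 0.0253). Median-of-ratios scaling ended both (adjusted p = 0.277 and 0.314), and leaving out WT replicate 2 or SgshKO replicate 1 of the NeuN+ libraries, or WT replicate 1, WT replicate 2 or SgshKO replicate 1 of the Olig2+ libraries, ended the latter (adjusted p from 0.0578 to 0.188). At the one 26 bp upstream, the effect in Olig2+ nuclei, with 8.30 and 9.20 tags in WT and 19.7 and 26.6 in SgshKO, exceeded that in microglia by 1.54 ± 0.40 (adjusted p = 0.00693) and that in NeuN+ nuclei by 2.24 ± 0.40 (adjusted p = 0.000351). The latter held in every alternative run, and the former missed without WT replicate 2 of microglia (adjusted p = 0.0528). Whether the 2 Irf1 peaks differ from each other was not tested.

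The last 2 were Ifih1 and an intronic Irf2 peak 1499 bp from the TSS. The Ifih1 effect in NeuN+ nuclei was lower than in microglia by 1.61 ± 0.53 (adjusted p = 0.0175) and than in Olig2+ nuclei by 2.00 ± 0.53 (adjusted p = 0.00693). Both were lost with median-of-ratios scaling (adjusted p = 0.121 and 0.0549) and without SgshKO replicate 2 of the NeuN+ libraries (0.165 and 0.0520), which held 0.630 tags there. The first was lost as well with a pseudocount of 5 (0.86, adjusted p = 0.0507), and without WT replicate 1 or 2 of microglia (0.0504 and 0.0650) or WT replicate 1 of the NeuN+ libraries (0.0705). At Irf2 the effect in Olig2+ nuclei exceeded that in microglia by 0.91 ± 0.29 (adjusted p = 0.0253) and that in NeuN+ nuclei by 1.19 ± 0.29 (adjusted p = 0.00336). The first ended without WT replicate 1, WT replicate 2 or SgshKO replicate 2 of microglia and without WT replicate 2 or SgshKO replicate 2 of the Olig2+ libraries (adjusted p from 0.0505 to 0.109), and the other with median-of-ratios scaling (0.0590).

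**Figure D5:**
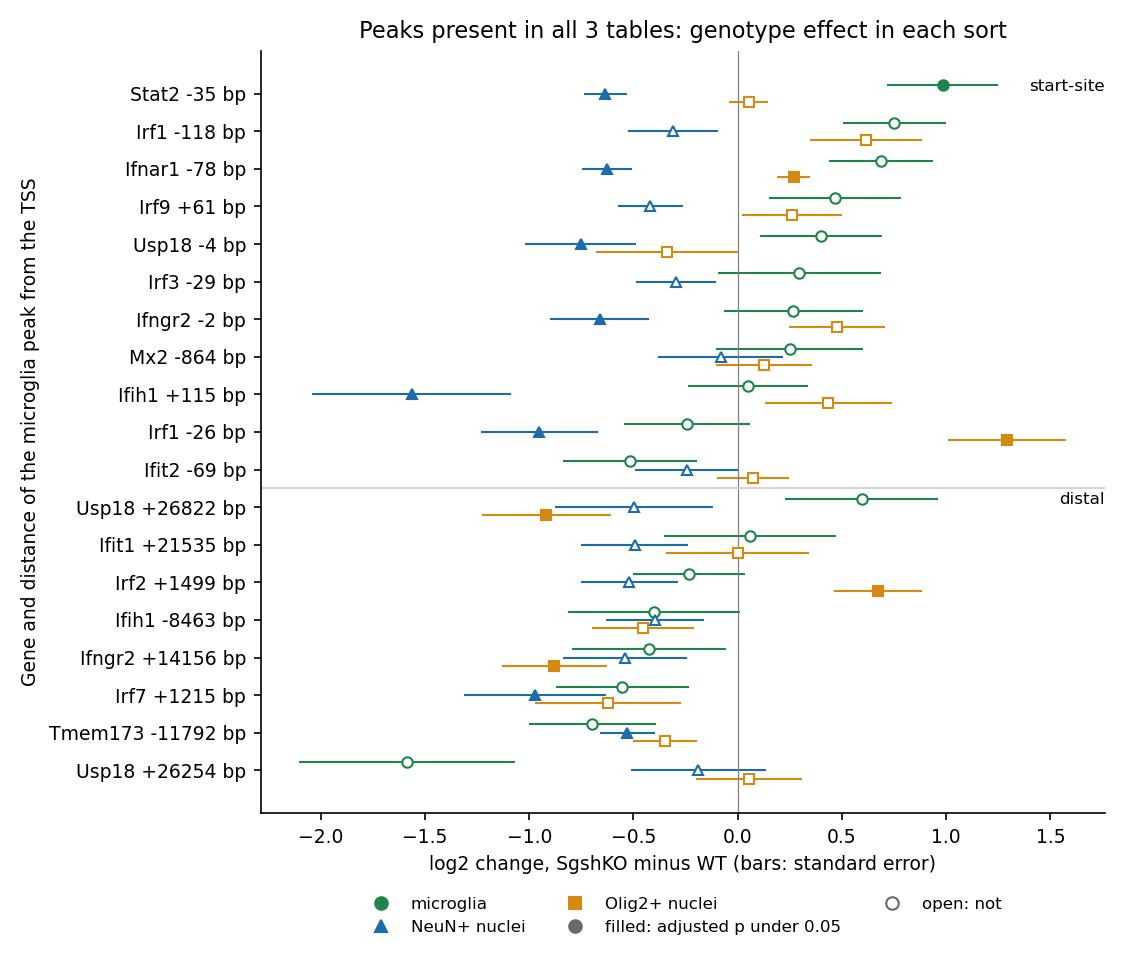
Log2 change (SgshKO minus WT) with its standard error in each sort for the 19 member peaks found in all 3 tables, start-site peaks above the line and distal peaks below; filled symbols have a limma adjusted p under 0.05 in their own table, and the Irf3 peak is named for another gene in Olig2+ nuclei. Stat2 and Ifnar1 lie above 0 in microglia and below 0 in NeuN+ nuclei, and the Irf1 peak 26 bp upstream is highest in Olig2+ nuclei.

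The rest of the pathway was read from a list of 68 further genes (kinases, adaptors, other sensors and effectors). In microglia 24 of their 445 peaks were called, 12 higher and 12 lower (5.39%), with a median of -0.06, against 7.37% of the table. In NeuN+ nuclei it was 43 of 232, 12 higher and 31 lower (18.5%), with a median of -0.29, against 29.8%. In Olig2+ nuclei 58 of 184 were called, 44 higher and 14 lower (31.5%), with a median of 0.26, against 19.8%. Many of these peaks are those of Irf2bp2, Irf2bpl and Irf2bp1, which encode binding partners of Irf2: without them 17 of 72 were called, 8 higher and 9 lower, with a median of -0.19. Irf2bpl alone had 24 of 39 peaks called higher there. In microglia the kinase gene Ikbke, which acts upstream of Irf3, had 7 of 27 peaks called lower and 0 higher, with a median of -0.66.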

How the data were processed

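ATAC-seq was run on 12 libraries, 2 in each of 6 groups (3 sorts, 2 genotypes). The deposited tables, 1 per sort, list merged peaks with their position, nearest gene, distance to its start site and tag signal per library, which the authors normalized to 10000000 tags, per the file headers. The submitters' processing notes name Bowtie2, HOMER and mm10; versions and settings were not given in the sources used. Whole reads were recovered for 100.0% of values, within 0.01 of a whole number.

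Genotypes were compared within each table with limma 3.58.1 (R 4.3.3; trend) on log2(signal + 1), two-sided, with Benjamini-Hochberg adjustment over all peaks of the table, and peaks were called at an adjusted p under 0.05. Fold changes are on that scale, which understates the change of low peaks. The test calls peaks whose change is large against the spread between libraries. That a called peak does not overlap between genotypes is therefore no further support. A second limma model of all 12 libraries compared the genotype effect between sorts over shared peaks. The test was checked on simulated data. Alternatives were other pseudocounts, a filter on low peaks, other scalings, edgeR 4.0.16 and DESeq2 1.42.0 on the recovered reads, a replicate block and each library left out.

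Members and lists were chosen with earlier results of these data known. Per-library values are given for every called microglial peak; for up to 6 called peaks a direction with the largest changes in each nuclei table, among those with a mean at or above the 25th percentile of the table; for the 3 highest start sites in each table; for up to 6 shared peaks by smallest p; and for up to 3 genes a role with a start-site peak in all tables. A few others were chosen after their values were seen. They were the Ifngr2 promoter in microglia, in NeuN+ nuclei and across the sorts, and the Bst2 and Rsad2 promoters in Olig2+ nuclei. Also chosen so were called distal peaks of the nuclei under that percentile and the uncalled Rsad2, Irf5, Isg15 and Ddx58 peaks in microglia. Irf2bpl and Ikbke were as well. Peaks with no gene name (42, 12 and 23 in the microglia, NeuN and Olig2 tables) were tested but are in neither class. RefSeq windows on GRCm38.p6 were matched by the listed gene names, with chromosome 18 left out, and gave none for 8 members. Among these is Tmem173, which lies on chromosome 18.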

Additional observations from a re-analysis of the deposited data

Results flagged for a closer look

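The genotype effect differed between sorts by the interaction test at 11 member peaks, in 20 contrasts. The 6 peaks with the smallest p, which hold 13 of these contrasts, are given here. Values are differences of log2 changes, the first sort minus the second. The Irf1 peaks are named by their distances from different start sites. Between microglia and NeuN+ nuclei they were 1.617 for Stat2, 1.316 for Ifnar1, 1.614 for Ifih1 and 1.06 for the Irf1 peak 118 bp upstream. Between microglia and Olig2+ nuclei they were 0.9288 for Stat2, -1.537 for the Irf1 peak 26 bp upstream and -0.9076 for the Irf2 peak at 1499 bp. Between NeuN+ and Olig2+ nuclei they were -0.6883 for Stat2, -0.896 for Ifnar1, -1.998 for Ifih1, -0.9245 and -2.245 for the Irf1 peaks 118 and 26 bp upstream, and -1.194 for Irf2. All shared peaks had a median difference of 0.61, 0.17 and -0.50 in the same 3 contrasts.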

How the results depend on the processing

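Each group had 2 libraries, and a member peak held a median of 20 to 39.5 reads per library, which limits low peaks most.

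The number of member peaks called, 16 in microglia, 21 in NeuN+ and 13 in Olig2+ nuclei, stayed within 1.5 times with a pseudocount of 0.5 or 5 and without the lowest 25% of peaks. In microglia it was 43 with in-peak scaling, 31 with median-of-ratios scaling, 25 with quantile normalization, 36 with edgeR, 10 with DESeq2 and 0 to 48 with 1 library left out. In NeuN+ nuclei it was 7 with quantile normalization, 1 with DESeq2 and 0 to 7 with 1 library left out, or 11 and 10 with edgeR without SgshKO replicate 1 or 2, a setting chosen after seeing the data. In Olig2+ nuclei it was 2 with DESeq2 and 4 to 14 with 1 library left out. The 11 member peaks called between sorts became 6 with median-of-ratios scaling and 8 to 10 with 1 library left out. Limiting start-site peaks to 500 bp gave 4, 8 and 3 calls, against 4, 9 and 3. The cause of these shifts was not tested.

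Same-numbered libraries did not deviate together (correlations of 0.042, 0.0036 and 0.00069 in microglia, NeuN+ and Olig2+ nuclei). The labels do not say whether the numbers mark pairs, and these correlations cannot settle it. With the replicate block the counts were 37, 23, 15 and, between sorts, 11, against 16, 21, 13 and 11 without it.

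Over the peaks named with values, 42 of 343 alternatives in microglia, 101 of 269 in NeuN+, 25 of 238 in Olig2+ nuclei and 28 of 208 between sorts lost a call. The totals within a sort also count named peaks that the main test had not called. Such peaks had no call to lose, so among called peaks the share lost was larger. DESeq2 gave no adjusted p to 14 of 245 member peaks in microglia and 30 of 58 in Olig2+ nuclei, and those are in no count of lost calls. The log2 change turned sign in 29, of which the Ifngr1 promoter of NeuN+ nuclei was the 1 called peak, at 0.162 with quantile normalization.

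With another scaling or tool, the microglial peaks that turned were Ifngr1 at 85 bp with quantile normalization (-0.0169), Ifih1 with in-peak scaling (-0.156) and quantile normalization (-0.192), and Mx2 with in-peak scaling (-0.122). In NeuN+ nuclei Xaf1 turned with in-peak scaling (0.162), median-of-ratios scaling (0.0854), edgeR (0.0856), DESeq2 (0.0892) and edgeR without SgshKO replicate 1 (0.0779) or 2 (0.104), and Ifit2 with in-peak scaling (0.0471), edgeR (0.0284), DESeq2 (0.0417) and edgeR without SgshKO replicate 2 (0.463). Olig2+ nuclei had Xaf1 with quantile normalization (0.00394) and Ifit2 with quantile normalization (0.111) and edgeR (0.0673).

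With 1 library left out, the change ranged from -0.0301 to 0.842 for Xaf1, -0.0137 to 0.428 for Ifnar2 and -0.0170 to 0.180 for Mx2 in microglia, lowest without SgshKO replicate 1. It ranged from -0.0582 to 0.488 for Mx2 and -0.740 to 0.253 for Ifit2 in NeuN+ nuclei, turning without SgshKO replicate 2. In Olig2+ nuclei it ranged from -0.0550 to 0.163 for Stat2, -0.282 to 0.148 for Xaf1, -0.493 to 0.364 for Ifit2 and -0.754 to 0.0799 for Usp18. Those sign changes came without WT replicate 2 for Stat2, without WT replicate 2 (0.148) and SgshKO replicate 1 (0.0131) for Xaf1, without WT replicate 1 (0.153) and SgshKO replicate 2 for Ifit2, and without SgshKO replicate 1 for Usp18.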
